A study of Mus musculus with 3 samples.

Results

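This account covers 10 genes of Wnt signalling: the receptors and co-receptors Fzd1, Fzd2, Fzd7, Lrp5 and Lrp6, the transducer Ctnnb1, the nuclear partners Tcf7 and Lef1, the feedback target Axin2 and the secreted protein Dkk3. Members were all noncontrol probes that the array files name for these genes, 16 of 39429 distinct probes and 10 of 30342 gene names. RM1 cells are a murine line of prostate cancer. RM1-MXRA7 cells carry a transfected MXRA7, a gene whose name stands for matrix remodelling associated. RM1-VE cells carry the vehicle vector alone. Both lines were grown under G418 selection in serum-containing DMEM and taken in exponential growth on day 2, so drug and vector backbone are shared. The labels do not say whether either line is a clone or a pool, which promoter drives the insert, or which species it comes from.

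Total RNA of both lines was compared on 3 Agilent 2-colour arrays, each with RM1-MXRA7 in Cy3 and RM1-VE in Cy5. Each array gave 1 log2 ratio per probe, RM1-MXRA7 over RM1-VE, so a positive value is a higher signal in RM1-MXRA7 cells. The number of arrays, 3, limits the precision. Dyes were not swapped, so dye bias and line differences cannot be told apart for any probe. The labels number the arrays but do not say that the RNA came from separate cultures, so the p-values measure only the spread between these arrays, which may be technical.

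In the canonical pathway, a secreted Wnt binds a Frizzled receptor together with Lrp5 or Lrp6 at the cell surface. This stops a cytoplasmic complex that includes Axin proteins, APC and the kinase GSK3 from marking beta-catenin, the product of Ctnnb1, for destruction. Beta-catenin then enters the nucleus and joins TCF and LEF proteins on target genes, Axin2 among them, whose product feeds back on the pathway. In the prostate the pathway is known for roles in epithelial budding and in cancer progression.

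Few of the receptors, transducers and nuclear partners were called different between the lines, about as often as probes of the whole array. Mean ratios of those called stayed under 2-fold, and a missing call does not show equal levels. Of the 16 probes, 13 were tested, because at least 1 channel was well above background on each of the 3 arrays. A probe is called higher or lower here where limma gave an adjusted p under 0.05 in the same direction in 2 fits. One leaves in a trend of the ratios over the array surface and the other removes it. A Fzd1 probe and 1 of 2 Lrp6 probes were higher in RM1-MXRA7 cells, 1 of 2 Tcf7 probes was lower, and 10 probes were not called. These 3 of 13 probes are 23.1%, and 23.6% of all 21805 tested probes were called in either direction, 11.2% of them higher and 12.4% lower. The share of members called is near that of the array as a whole. By the fit with the surface left in alone, 24.3% of all probes and 24.4% of genes were higher, and 23% of probes and 23.8% of genes were lower. By Agilent's own processed signals alone, 11.5% of probes and 11.3% of genes were higher, and 12% of probes and 12.7% of genes were lower.

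Counted by gene, with the brightest tested probe standing for each, Fzd1 was higher, Tcf7 was lower and 6 of the 8 genes tested were neither. Fzd1 entered the test through the RM1-MXRA7 channel alone, and with both channels required to be well above background 0 genes were higher. Of 16826 genes, 11.2% were higher and 13.1% lower by the same rule, 24.3% in all. The median log2 ratio of the 8 genes was -0.11 with the surface left in and 0.03 with it removed, against -0.01 and -0.0009 over all genes. Their median absolute ratio with the surface removed was 0.08, against 0.13 over all genes.

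Across the whole series, 21995 to 23176 probes per array were well above background in the RM1-MXRA7 channel, and 21787 to 24185 in the RM1-VE channel. All 3 arrays lay on 1 slide. The ratios ran along the rows of the arrays: medians of the tested probes in 20 bins of rows spanned 0.28 to -0.22 on array 1, 0.38 to -0.20 on array 2 and 0.23 to -0.24 on array 3. With a fitted surface removed, the bins lay between -0.07 and 0.10 on all 3 arrays. Of the markers of prostate epithelium, 4 of 13 were tested (Krt8, Krt18, Krt14 and Trp63), and Epcam, Cdh1 and Pbsn were not well above background on any array. Mesenchymal markers were tested for 6 of 7, leukocyte markers for 2 of 5 and endothelial markers for 3 of 4. The leukocyte marker Ptprc was not well above background on any array, whereas Pecam1, Cdh5 and Kdr of the endothelial list were on all 3. Summed processed intensities of the endothelial list were 1280 to 1398 in RM1-MXRA7 cells and 1434 to 1477 in RM1-VE cells. Cdh5 was lower in RM1-MXRA7 cells, at a log2 ratio of -0.77 with the surface removed. Pecam1 and Kdr were not called, at -0.19 and -0.24 with the surface left in and at -0.13 and -0.08 with it removed. Summed processed intensities of the mesenchymal list were 86952 to 89330 in RM1-MXRA7 cells and 88291 to 95803 in RM1-VE cells. In that list Acta2 and S100a4 were lower. A second S100a4 probe gave -0.42 with the surface left in and -0.002 with it removed. Vim, Zeb1, Pdgfrb and Cdh2 were not called, at 0.04, 0.48, 0.12 and -0.12 with the surface left in. With it removed they were at 0.08, 0.17, 0.12 and 0.14. A second Cdh2 probe gave 0.34 with the surface left in and 0.14 with it removed. Trp63 of the prostate list, which summed to 76890 to 86606 in RM1-MXRA7 cells and 70909 to 77789 in RM1-VE cells, was lower. Krt18 of the same list was not called, at 0.59 with the surface left in, -0.02 with it removed and 0.34 in Agilent's processed signals. Cd3e of the leukocyte list, which summed to 2033 to 6317 in RM1-MXRA7 cells and 2542 to 6473 in RM1-VE cells, was lower too. Cd68 of that list was not called, at -0.34 with the surface left in and -0.05 with it removed. The part of any marker in the results below was not tested.

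The transfected gene does not check which line is which. At its brighter probe, Mxra7 had log2 levels of 11.24, 11.09 and 10.79 in RM1-MXRA7 cells, against 10.85, 10.70 and 10.64 in RM1-VE cells. Its log2 ratio was 0.31 ± 0.14 (SD, n = 3) with the surface left in, limma adjusted p = 0.004, and 0.007 ± 0.045 (SD, n = 3) with it removed, limma adjusted p = 0.934. Agilent's processed signals gave -0.03. The second Mxra7 probe was not called, at 0.10 ± 0.04 (SD, n = 3) with the surface left in and 0.09 ± 0.05 (SD, n = 3) with it removed. Every direction below rests on the dyes in the labels, and the part of the insert that these mouse probes could detect is not stated.

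**Figure D1:**
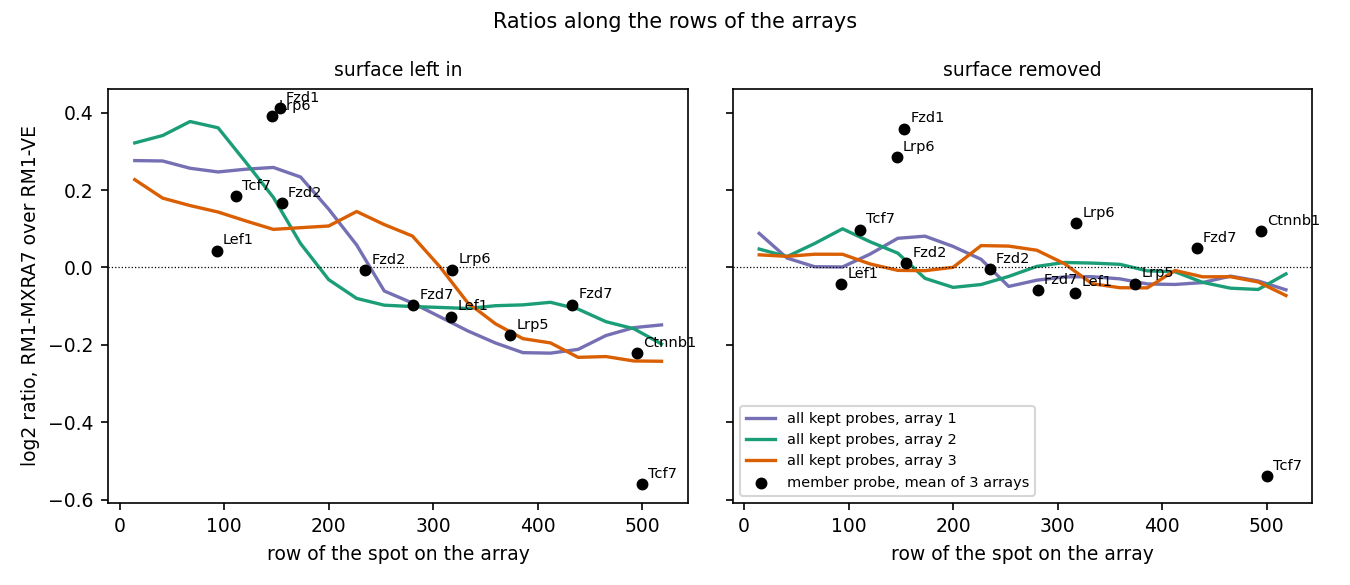
Log2 ratio of RM1-MXRA7 over RM1-VE (vertical) against the row of the spot on the array (horizontal), with the surface left in (left panel) and removed (right panel). Lines are medians of all tested probes in 20 bins of rows on each array and points are the means of the 13 member probes over 3 arrays; most points follow the lines on the left, while Fzd1, a Lrp6 probe and a Tcf7 probe stand apart from them in both panels.

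Frizzled receptors bind Wnt ligands, and the 3 measured here had 5 probes. Each probe is named below by its gene and its first base on the transcript, as the array files give it. Probes Fzd2 1868 and Fzd7 2376 share part of their sequence and are shown because signal could cross between them. In the 50 bases over which they align, 42 are identical and 8 differ. The capitals mark the bases that differ, and the letters are those of the array files, 5′ to 3′, at chr11:102467613-102467672 and chr1:59541367-59541426 of mm9, both on the plus strand.
Fzd2 1868: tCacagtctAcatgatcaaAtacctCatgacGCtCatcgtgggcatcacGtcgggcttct
Fzd7 2376: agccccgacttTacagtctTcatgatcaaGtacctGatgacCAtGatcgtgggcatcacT
No other pair of member probes from different genes had more than 25 identical bases in an alignment without gaps. Whether signal crossed between the pair was not tested.

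The single Fzd1 probe, 4154, lies on chromosome 5 at 4754003 to 4754062 (mm9). Its log2 levels were 6.85, 7.54 and 6.99 in RM1-MXRA7 cells, against 6.63, 7.03 and 6.49 in RM1-VE cells. RM1-MXRA7 was the higher channel on every array, but the levels of the lines overlapped because array 2 was bright in both. The log2 ratio was 0.41 ± 0.16 (SD, n = 3; limma 95% interval 0.24 to 0.58, adjusted p = 0.000553) with the surface left in, a 1.33-fold higher level in RM1-MXRA7 cells. With the surface removed it was 0.36 ± 0.16 (SD, n = 3; limma 95% interval 0.20 to 0.52, adjusted p = 0.00533), with 0.82 in Agilent's processed signals (limma adjusted p = 0.0134). The probe was dim. It was well above background on 3 arrays in RM1-MXRA7 and on 2 in RM1-VE, so it entered the test through the channel in which it was higher. Without array 2 the call was lost, with a ratio of 0.31 with the surface removed and limma adjusted p = 0.0581. The call was also lost in single channels with no replicate block (limma adjusted p = 0.21). Around its row, with the surface removed, the median of all tested probes was still 0.08 on array 1 and 0.04 on array 2. On array 3 that median was -0.007. The Fzd1 probe itself gave 0.17, 0.45 and 0.45 on the 3 arrays.

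Fzd2 did not differ beyond the spread at either probe. Probe 1868 had log2 levels of 11.42, 11.47 and 11.59 in RM1-MXRA7 cells and 11.33, 11.37 and 11.28 in RM1-VE cells, which did not overlap before the surface was removed. The ratio was 0.17 ± 0.12 (SD, n = 3) with the surface left in and 0.01 ± 0.17 (SD, n = 3) with it removed, with a limma 95% interval of -0.15 to 0.18. Removing the surface thus took away most of the difference, and arrays 1 and 2 then gave -0.10 and -0.07 and array 3 gave 0.21. Probe 3300 had levels of 7.46, 7.45 and 7.36 in RM1-MXRA7 cells and 7.62, 7.66 and 7.02 in RM1-VE cells, again with array 3 opposite in direction to the others. Its ratio with the surface removed was -0.004, interval -0.22 to 0.21.

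Fzd7 was called at neither of its 2 probes. Probe 2376, the one that resembles Fzd2 1868, had log2 levels of 7.32, 7.22 and 7.23 in RM1-MXRA7 cells and 7.51, 7.41 and 7.14 in RM1-VE cells. Its ratio with the surface removed was -0.06 ± 0.12 (SD, n = 3), limma 95% interval -0.20 to 0.09. The brighter probe 4201, at chromosome 1, 59543192 to 59543251, had levels of 9.50, 9.76 and 9.41 in RM1-MXRA7 cells and 9.59, 9.78 and 9.59 in RM1-VE cells. Levels of the lines overlapped at both probes. The ratio of probe 4201 was -0.10 ± 0.07 (SD, n = 3) with the surface left in and 0.05 ± 0.02 (SD, n = 3) with it removed, interval -0.08 to 0.18, and changed sign on all 3 arrays.

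Lrp5 and Lrp6 are the co-receptors that pair with Frizzled proteins in the canonical pathway. The Lrp5 probe had log2 levels of 10.51, 10.45 and 10.55 in RM1-MXRA7 cells, against 10.73, 10.57 and 10.74 in RM1-VE cells. The levels did not overlap, by a narrow margin, and every array was lower in RM1-MXRA7. The ratio was -0.17 ± 0.05 (SD, n = 3; limma adjusted p = 0.0653) with the surface left in and -0.04 ± 0.03 (SD, n = 3; limma adjusted p = 0.597) with it removed, with a 95% interval of -0.17 to 0.09. Lrp5 was not called.

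The probes of Lrp6 disagreed. Probe Lrp6 4597 is shown because it carries the one call among the co-receptors; it lies at chr6:134404723-134404782 (mm9, minus strand), and no bases are in capitals.
Lrp6 4597: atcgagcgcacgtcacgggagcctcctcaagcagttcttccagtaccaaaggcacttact
Its log2 levels were 8.33, 8.68 and 8.36 in RM1-MXRA7 cells, against 7.81, 8.38 and 8.01 in RM1-VE cells. RM1-MXRA7 was higher on every array, and the lines overlapped only through array 2 of RM1-VE. The ratio was 0.39 ± 0.12 (SD, n = 3; limma 95% interval 0.23 to 0.56, adjusted p = 0.000645) with the surface left in. It was 0.28 ± 0.11 (SD, n = 3; limma 95% interval 0.14 to 0.43, adjusted p = 0.00944) with the surface removed, a 1.22-fold higher level, and 0.34 in Agilent's processed signals (limma adjusted p = 0.0276). The call held with each array left out in turn. It was lost with median centring in place of loess, where the ratio was 0.19 (limma adjusted p = 0.0763), and in single channels with no replicate block (limma adjusted p = 0.15). On the rows around this probe, with the surface removed, the median of all tested probes was still 0.08 on array 1, 0.04 on array 2 and -0.007 on array 3, while the probe itself gave 0.40, 0.18 and 0.27.

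The brighter probe of the same gene, Lrp6 5362 at chromosome 6, 134400440 to 134400499, had log2 levels of 12.29, 12.44 and 12.15 in RM1-MXRA7 cells and 12.46, 12.43 and 12.02 in RM1-VE cells. These overlapped, and the arrays did not share a direction. The ratio was -0.006 ± 0.15 (SD, n = 3) with the surface left in and 0.11 ± 0.10 (SD, n = 3) with it removed, limma 95% interval -0.03 to 0.25, adjusted p = 0.186. The difference between the 2 probes of Lrp6 was not tested.

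**Figure D2:**
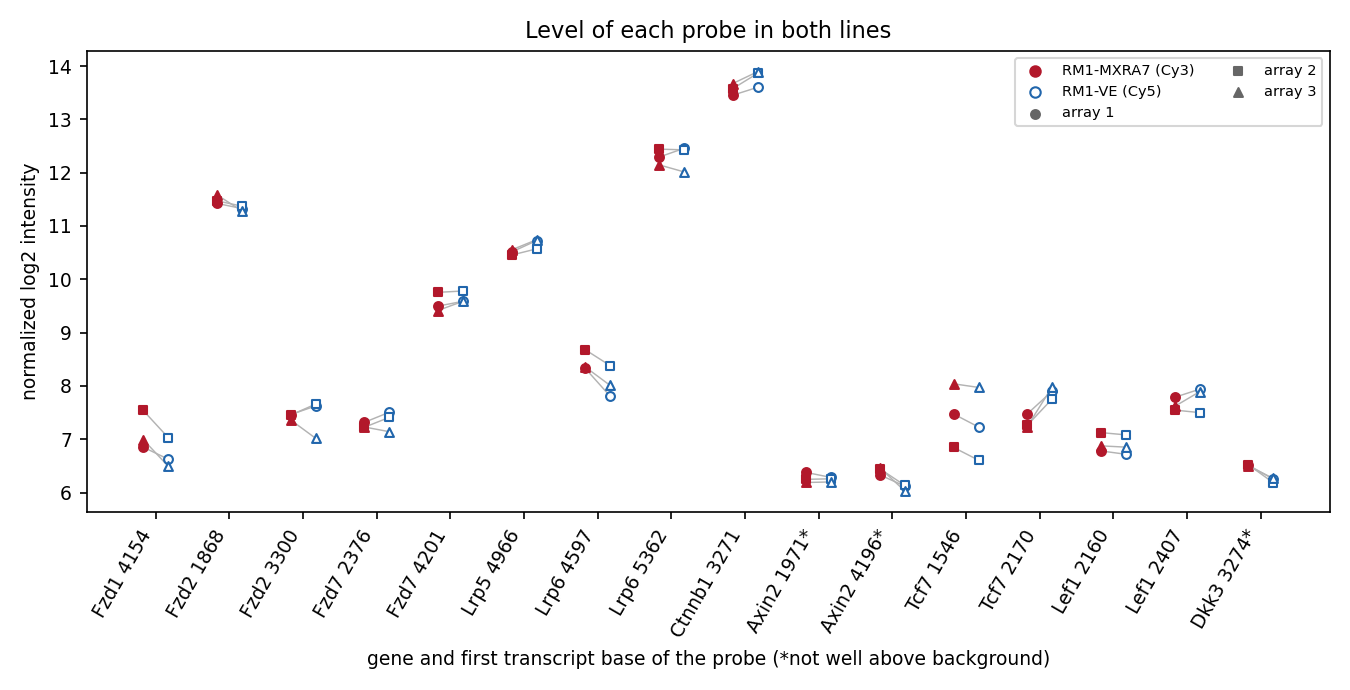
Normalized log2 intensity (vertical) of the 16 member probes in RM1-MXRA7 cells (filled, Cy3) and RM1-VE cells (open, Cy5), with a grey bar joining the values of the lines on each of 3 arrays and the surface left in. Tcf7 2170 is lower in RM1-MXRA7 on all 3 arrays without overlap, Fzd1 4154 and Lrp6 4597 are higher on all 3, and the asterisks mark 3 probes not well above background; heights of different probes are not comparable.

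Ctnnb1 encodes beta-catenin, which carries the signal to the nucleus and also links cadherins to the cytoskeleton at cell junctions. Its probe, at chromosome 9, 120869274 to 120869333, had log2 levels of 13.45, 13.57 and 13.67 in RM1-MXRA7 cells, against 13.60, 13.86 and 13.89 in RM1-VE cells. Each array was lower in RM1-MXRA7, with overlap between the lines. The ratio was -0.22 ± 0.07 (SD, n = 3; limma adjusted p = 0.024) with the surface left in, past the threshold in that fit. With the surface removed it was 0.09 ± 0.08 (SD, n = 3; limma 95% interval -0.04 to 0.23, adjusted p = 0.254), positive on all 3 arrays, with -0.01 in Agilent's processed signals. The surface accounted for -0.31 of the mean ratio at this spot, more than the ratio itself, and Ctnnb1 is therefore not called in either direction.

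Tcf7 and Lef1 encode DNA-binding proteins through which beta-catenin acts on target genes. Probe Tcf7 2170, at chromosome 11, 52066114 to 52066173, had log2 levels of 7.47, 7.26 and 7.24 in RM1-MXRA7 cells, against 7.90, 7.76 and 7.99 in RM1-VE cells. Every RM1-MXRA7 value lay below every RM1-VE value. In processed intensity the probe gave 50.6, 38.9 and 38.3 in RM1-MXRA7 cells and 72.1, 64.7 and 79.2 in RM1-VE cells. The log2 ratio was -0.56 ± 0.17 (SD, n = 3; limma 95% interval -0.73 to -0.39, adjusted p = 3.71e-05) with the surface left in. It was -0.54 ± 0.16 (SD, n = 3; limma adjusted p = 0.000657) with the surface removed, a 1.45-fold lower level in RM1-MXRA7 cells, and -0.76 in Agilent's processed signals (limma adjusted p = 0.00829). The surface contributed -0.02, and the call held with each array left out. Around the row of Tcf7 2170, with the surface removed, the median of all tested probes was still -0.03, -0.06 and -0.04 on the 3 arrays. The probe itself gave -0.41, -0.48 and -0.72.

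The other Tcf7 probe, 1546, lies within the same chromosome region at 52066738 to 52066797 and did not share this fall. Its log2 levels were 7.47, 6.85 and 8.04 in RM1-MXRA7 cells and 7.23, 6.61 and 7.97 in RM1-VE cells. The arrays differed widely and together in both channels, while the lines lay close on each array. The ratio was 0.18 ± 0.10 (SD, n = 3; limma adjusted p = 0.0579) with the surface left in and 0.10 ± 0.08 (SD, n = 3; limma 95% interval -0.04 to 0.23) with it removed. The call on Tcf7 therefore rests on 1 of its 2 probes, and a mean over both would not be called lower.

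Lef1 was not called at its 2 probes. Probe 2160 had log2 levels of 6.78, 7.12 and 6.88 in RM1-MXRA7 cells and 6.72, 7.08 and 6.85 in RM1-VE cells, which were nearly equal on each array. The ratio was 0.04 ± 0.02 (SD, n = 3) with the surface left in and -0.04 ± 0.03 (SD, n = 3) with it removed, limma 95% interval -0.17 to 0.08. Agilent's processed signals gave -0.30 (limma adjusted p = 0.0238) for this dim probe. Probe 2407 had levels of 7.79, 7.55 and 7.61 in RM1-MXRA7 cells, against 7.94, 7.50 and 7.89 in RM1-VE cells, with array 2 opposite to the others. Its ratio with the surface removed was -0.06 ± 0.20 (SD, n = 3), interval -0.24 to 0.11.

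**Figure D3:**
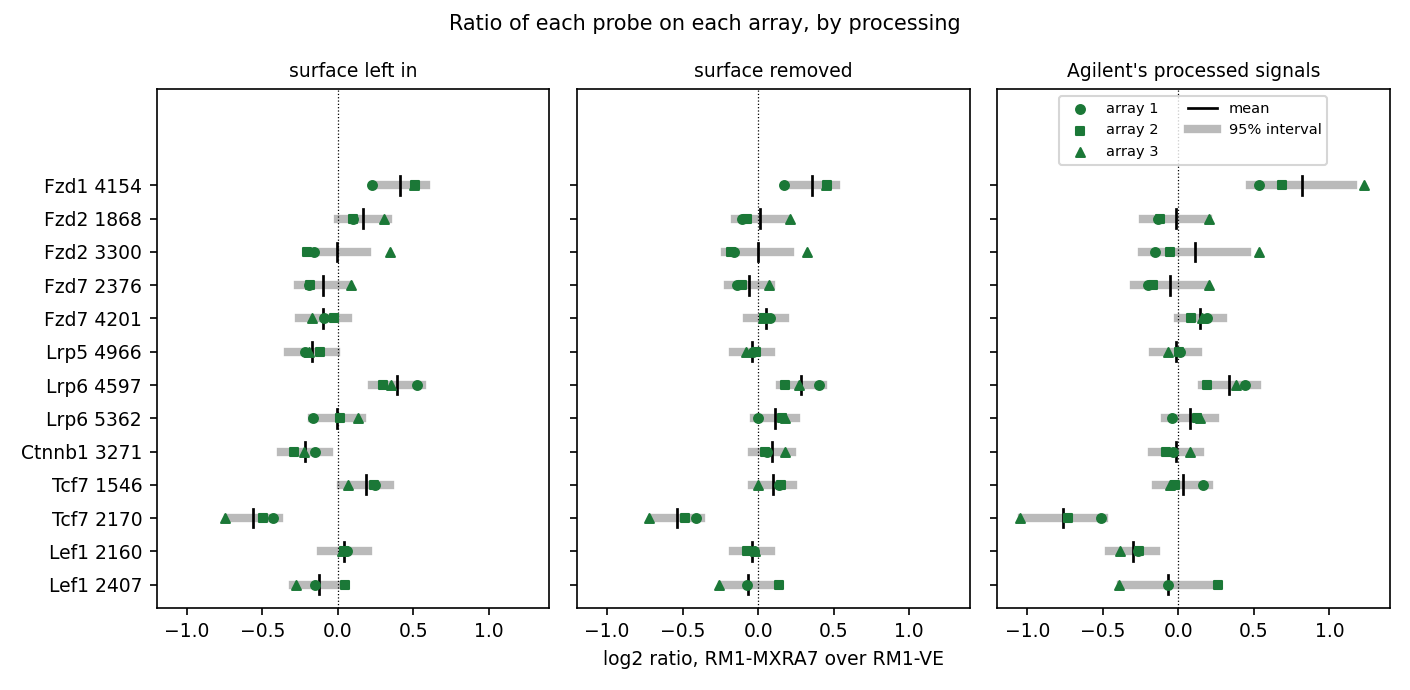
Log2 ratio of RM1-MXRA7 over RM1-VE (horizontal) of the 13 tested member probes (vertical) on each of 3 arrays, with the mean and limma's 95% interval, in 3 versions of the values. Tcf7 2170 is below 0 and Fzd1 4154 and Lrp6 4597 are above 0 in all 3 panels; Ctnnb1 3271 is at -0.22 with the surface left in and at 0.09 with it removed, and Lef1 2160 is below 0 beyond its interval only in Agilent's processed signals.

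Axin2, a feedback inhibitor that is among the most widely used readouts of beta-catenin activity, could not be compared. Neither of its probes was well above background in either channel on any array. The probe at chr11:108803927-108803986 (mm9, plus strand) is shown to identify what was measured, with no bases in capitals.
Axin2 1971: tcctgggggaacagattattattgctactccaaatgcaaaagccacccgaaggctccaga
Its log2 levels were 6.38, 6.25 and 6.19 in RM1-MXRA7 cells and 6.28, 6.26 and 6.20 in RM1-VE cells, and overlapped. Those of probe 4196 were 6.33, 6.45 and 6.46 in RM1-MXRA7 cells and 6.12, 6.13 and 6.03 in RM1-VE cells. With both channels not well above background, no fold is given.

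Dkk3, a secreted member of the Dickkopf family that is often reduced in prostate cancer, also had its only probe not well above background in either channel on any array. Its log2 levels were 6.51, 6.52 and 6.50 in RM1-MXRA7 cells and 6.26, 6.18 and 6.27 in RM1-VE cells. The levels did not overlap but no fold is given. Without the filter on dim probes, Dkk3 and Axin2 4196 would have been called higher in both fits and Axin2 1971 not, and 7.77% of the 13858 probes never well above background would have been called higher.

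RefSeq start-site windows (GRCm38.p6, 300 bases around each start) matched 6 members, Fzd1, Fzd7, Ctnnb1, Axin2, Tcf7 and Lef1, with 11 windows. The letters CTTTGAA or CTTTGAT, searched on both strands as a form of the TCF and LEF motif, were in 0 of these 11 windows and in 8.65% of all 32851 windows. This says only that those letters are not in these stretches.

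By a rule of nearest distance over the 3 ratios with the surface left in, the genes whose pattern was most like that of Tcf7 2170 among 16825 others were Samsn1 (distance 0.03), Tgif2 (0.05), 4930509E16Rik (0.06) and Rffl (0.06). Their mean log2 ratios were -0.55 for Samsn1, -0.57 for Tgif2, -0.54 for 4930509E16Rik and -0.58 for Rffl. With 3 points this is a description only.

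The rest of the pathway was read from lists of other genes by role, of which 106 were on the array and 61 were tested. In RM1-MXRA7 cells 10 were higher, 7 were lower and 44 were neither, which is 16.4% higher and 11.5% lower, against 11.2% and 13.1% of all genes. Their median log2 ratio was -0.008 with the surface left in and 0.04 with it removed. Over all genes, 24.3% were called in either direction. By list this share was 57.1% of 7 ligands, 50% of 2 secretion genes and 57.1% of 7 other receptors. It was 33.3% of 3 inhibitors, 18.8% of 16 transducers, 9.09% of 11 nuclear partners and 22.2% of 18 targets. In lists this short a single gene moves the share by several points or more.

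Most ligands were not well above background: 7 of 23 were tested, 2 were higher and 2 were lower. Wnt9a had log2 levels of 7.22, 7.60 and 7.65 in RM1-MXRA7 cells, against 6.48, 6.59 and 6.68 in RM1-VE cells, without overlap. Its ratio was 0.91 ± 0.15 (SD, n = 3) with the surface left in and 0.83 ± 0.15 (SD, n = 3) with it removed, and the call held with each array left out. In Agilent's processed signals the ratio of Wnt9a was larger, at 1.65. Wnt9a and Wnt7b were well above background on only 2 arrays in RM1-VE, so both entered through the channel in which they were higher. Wnt7b had a ratio of 0.20 with the surface left in and 0.28 with it removed, against 1.00 in Agilent's processed signals. The call on Wnt7b was lost without array 1 and without array 2. Lower in RM1-MXRA7 cells were Wnt5b and Wnt4, ligands best known outside the canonical branch, at -0.20 each with the surface removed. Agilent's processed signals gave -0.29 for Wnt5b and -0.33 for Wnt4. The call on Wnt5b was lost without array 2 and without array 3, and that on Wnt4 without array 2. Wls, which carries Wnt proteins to the cell surface, was higher at 0.61 with the surface left in and 0.21 with it removed, so most of its ratio went with the surface, and its call was lost without array 2 and without array 3.

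Among 17 other receptors and proteins of receptor turnover, 7 were tested. Ryk, a Wnt-binding co-receptor, was higher at 0.30 with the surface removed, a call lost without array 1. Fzd3 was called higher at 0.38, although array 3 gave -0.04 with the surface left in. Fzd4 was lower at -0.30, and Kremen1, a receptor for Dickkopf proteins, was lower at -0.19. The call on Kremen1 was lost whichever array was left out, and those on Fzd3 and Fzd4 were lost without array 1 and without array 2.

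Of 14 secreted and membrane inhibitors, 3 were tested and 1 was higher. This was Apcdd1, a membrane inhibitor of Wnt signalling that is itself induced by beta-catenin. Its log2 levels were 9.48, 9.87 and 9.09 in RM1-MXRA7 cells, against 8.68, 8.92 and 8.51 in RM1-VE cells, without overlap. The ratio was 0.77 ± 0.19 (SD, n = 3) with the surface left in and 0.61 ± 0.13 (SD, n = 3; limma adjusted p = 0.000218) with it removed.

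Cytoplasmic transducers were tested for 16 of 18, with 1 higher and 2 lower. Dvl2, a Dishevelled protein that relays the signal below the receptors, was higher at 0.40 with the surface removed, while its other probe gave -0.004. The call was lost without array 2. Csnk1d, a casein kinase, was lower at -0.25, a call lost without array 2. Another probe of Csnk1d lay in the opposite direction, at 0.39 with the surface left in (limma adjusted p = 0.000949) and 0.18 with it removed. Btrc, which targets marked beta-catenin for destruction, was lower at -0.26, with another probe at 0.08, and its call was lost without array 1 and without array 2. All 3 genes thus had a second probe that was not called in both fits.

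Nuclear partners were tested for 11 of 13, with 1 called by its brightest probe. A second probe of Tle2, another Groucho-type corepressor, was also called higher, at 0.57 with the surface left in and 0.40 with it removed; this one and that of Vegfa below were picked after their values were seen. Tle3, a Groucho-type corepressor of TCF proteins, had log2 levels of 12.73, 12.94 and 12.54 in RM1-MXRA7 cells, against 12.05, 12.37 and 11.97 in RM1-VE cells. Levels of the lines did not overlap. The ratio was 0.61 ± 0.06 (SD, n = 3) with the surface left in and 0.50 ± 0.02 (SD, n = 3) with it removed, and was called with each array left out.

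Of genes known as targets of beta-catenin in some tissues, 26 were on the array and 18 were tested. Higher were Ccn4, Myc and Apcdd1, lower was Bmp4, and 14 were neither. Ccn4, a matricellular protein first described as a Wnt-induced gene, had log2 levels of 10.95, 11.58 and 11.14 in RM1-MXRA7 cells, against 10.72, 11.18 and 10.52 in RM1-VE cells. RM1-MXRA7 was higher on each array, with overlap between the lines. Its ratio was 0.41 ± 0.20 (SD, n = 3) with the surface left in and 0.54 ± 0.16 (SD, n = 3) with it removed, and a second probe was called higher too, at 0.68 with the surface removed. Myc, a growth-promoting transcription factor, was higher at 0.35 ± 0.20 (SD, n = 3) with the surface removed, a call lost without array 3. Bmp4, a growth factor of the BMP family, was lower at -0.46 ± 0.09 (SD, n = 3), a call lost without array 2. Both have many regulators besides Wnt. A second probe of Vegfa, a growth factor of blood vessels, was called lower at -0.38 with the surface left in and -0.21 with it removed, while its brightest probe was not called.

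**Figure D4:**
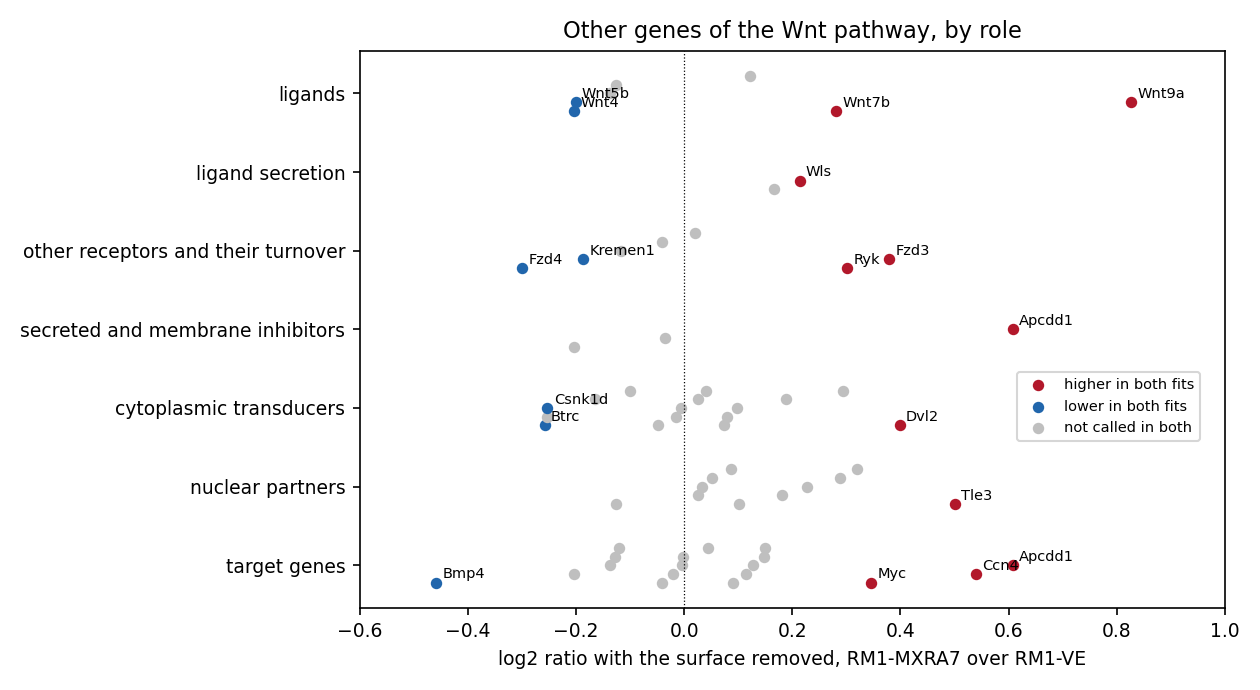
Log2 ratio of RM1-MXRA7 over RM1-VE with the surface removed (horizontal) for the tested genes of 7 lists (rows), each point 1 gene by its brightest probe. Red points are higher and blue points lower in both fits. Wnt9a at 0.83 lies furthest right, Bmp4 at -0.46 furthest left, and most points are grey. Apcdd1, Notum and Znrf3 each stand in 2 lists.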

How the data were processed

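Per the file headers, the authors deposited Agilent Feature Extraction output (version 10.7.1.1, per the submitters' processing notes) with an intensity per spot and channel. The same deposited files hold a log10 ratio (red over green), read here only to check direction. The authors' deposited series matrix gives 1 linear ratio per probe, uncentred, that lay within 1% of processed green over processed red in 99.7% to 99.8% of values. Its column medians were 1.02, 1.03 and 0.972, and it served as an alternative.

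Background was corrected by normexp (offset 50) and dyes by within-array loess in limma 3.58.1 (R 4.3.3), with control and outlier-flagged spots at weight 0. No member spot carried an outlier flag. Spots of a probe were averaged. The tested probes, 21805, had a channel well above background on each array. RefSeq (GRCm38.p6) named 27508 of 39429 probes and the array the others. Coordinates are those of the array files (mm9). A gene was represented by its brightest tested probe. The log2 ratio of each probe was compared with 0 in limma (lmFit, eBayes), with Benjamini-Hochberg adjustment over all tested probes, and 95% intervals are unadjusted. Of the degrees of freedom, 16.1 were prior and 2 residual, so the spread is mostly that pooled over probes.

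The surface was a polynomial of degree 4 over row and column, alone and times log2 intensity. It explained 27.4% of the variance on array 1, 26.3% on array 2 and 19.8% on array 3. The median SD of a probe was 0.0948 with it removed and 0.116 with it left in. Levels are values per channel after loess and Aquantile. Steps were run on simulated data with independent noise and the fitted surfaces. That simulation could not test dye bias or row trends left after removal.

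The members, gene lists and the rule of 2 fits were chosen with earlier results of these data known. Named genes are the members, Mxra7, in each list the genes called in both fits (at most 6), and 4 genes nearest to the member probe of largest called ratio. Alternatives covered background correction, normalization, filter, collapse of probes, source, test and arrays left out.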

Additional observations from a re-analysis of the deposited data

How the results depend on the processing

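Single probes, those of Mxra7 included, were followed over 15 settings by 1 fit each, not by the rule of 2 fits. That fit left the surface in, except in the setting that removed it. By it, 198 of 224 values kept their side of the threshold. The sign was kept in 180 of these and changed in 18, all on the uncalled side. A further 12 lost and 8 gained an adjusted p under 0.05. Another 6 changed sign with a value under 0.05 on at least 1 side. The setting with the surface left in and single channels with the replicate block repeat the fit compared, so their values could not move. The series matrix nearly repeats Agilent's processed signals. Tcf7 2170 was lower at this threshold under all 15. Fzd1 could not be tested with the filter on both channels. Ctnnb1 changed sign to 0.093 with the surface removed, and was -0.71 with median centring (limma adjusted p = 6.97e-05). By that 1 fit, median centring also put Lrp5 at -0.50, Lrp6 5362 at -0.40, Fzd7 4201 at -0.38 and Lef1 2407 at -0.27. Each of these had a limma adjusted p under 0.05. By the rule of 2 fits, genes of the members lower stayed at 1 with median centring. Lef1 2160 was -0.30 in Agilent's processed signals and in the series matrix. The brighter Mxra7 probe was -0.034 in both and -0.023 with median centring. The second Mxra7 probe was 0.18 in both and -0.029 with median centring. Genes of the members higher, 1 in the report, were 0 with a filter on both channels, 2 without a filter, 2 when a gene's probes were averaged, 0 with single channels and no replicate block, and 0 to 1 with an array left out. Genes lower, also 1, were 2 with the surface left in alone, a setting chosen after seeing the data, and 0 when probes were averaged. Member probes higher, 2 in the report, were 1 with median centring, 1 with a filter on both channels, 4 without a filter, 0 with no replicate block, and 1 to 2 with an array left out. Member probes lower, 1 in the report, were 2 in processed signals, in the series matrix and with the surface left in. Pathway genes higher, 10 in the report, were 5 with median centring, 16 with the surface left in, 1 with no replicate block, and 6 to 9 with an array left out (6 without array 2). Pathway genes lower, 7 in the report, were 3 in processed signals and in the series matrix, 13 with the surface left in, 11 without a filter, 4 when probes were averaged, 0 with no replicate block, and 0 to 6 with an array left out (0 without array 2). Each array pairs the lines, and single channels with the array as replicate block repeat that paired test. Their counts therefore could not differ from those of the report: 1 and 1 member genes, 2 and 1 member probes, 10 and 7 pathway genes. With the surface left in alone, 24.4% of all genes were higher and 23.8% lower. For the other settings with a moved count, no share of all genes by the same rule was taken. A moved count there is therefore not shown to be particular to these genes. Where a value moved, the cause was not tested. Axin2 and Dkk3 were limited by signal at background.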
